A study of Homo sapiens with 6 samples.

Results

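The 14-3-3 proteins are a family of 7 genes in humans, YWHAB, YWHAE, YWHAG, YWHAH, YWHAQ, YWHAZ and SFN, which encode the beta, epsilon, gamma, eta, theta, zeta and sigma proteins. Their probes were taken from the deposited table of unnormalised intensities by the platform's gene symbol, and each probe was kept as a measurement of its own. This gave 11 probes of the 48803 on the array: 2 each for YWHAB, YWHAE, YWHAG and YWHAZ, and 1 each for YWHAH, YWHAQ and SFN. The array has named probes for 18849 genes in all. The family was chosen by its intensities in siSTAT3 against siCon cells, which were known when it was proposed, so these differences, and the count of probes past the threshold, are given as a description that supports no conclusion about the family.

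Members of this family form cup-shaped dimers, of one protein or of a mixed pair, that bind other proteins at short stretches carrying a phosphorylated serine or threonine. Binding can hold a partner in the cytoplasm, hide a surface or keep an enzyme in one state, and partners include cell cycle phosphatases, RAF kinases, FOXO and YAP1 transcription regulators and pro-apoptotic proteins. Kinases such as AKT write the binding sites and phosphatases erase them. In epithelial tumours the sigma protein, SFN, is known as a p53-induced brake on entry into mitosis, and the zeta protein, YWHAZ, as a survival factor.

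RNA came from SKOV3ip1, an established line derived from the ovarian cancer line SKOV3. STAT3, a transcription factor downstream of cytokine and growth factor receptors, had been knocked down by siRNA in the cells of 3 arrays (siSTAT3), and 3 arrays held cells with a control siRNA (siCon). The labels name no time after transfection, dose or siRNA sequence. Nothing in them says whether replicates were grown separately, so the spread between arrays of a group, and with it every p-value, may be technical. The series asks what STAT3 does in these cells.

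Values are intensities on single-colour Illumina bead arrays, quantile-normalised between arrays, which gives every array the same set of values. A change is log2 siSTAT3 over siCon with the standard error (SE) of a limma model fitted to 29282 probes at once, and a probe was called when its Benjamini-Hochberg adjusted p over all of these was under 0.05. Median unnormalised intensity lay between 93.5 and 97.1 on siSTAT3 arrays and between 93.0 and 95.9 on siCon arrays. The mean, which bright probes weigh on more, was 464, 483 and 434 on siSTAT3 arrays 1 to 3. On siCon arrays 1 to 3 it was 475, 461 and 409, so the third siCon array was the lowest. The 6 arrays limit the precision of every value. No detection p-values came with the tables, whether the deposited values had background subtracted is unknown, and none was subtracted here, so any background left in them would understate the changes of dim probes. Intensities of different probes are not used to compare levels between members, because probes differ in how well they bind. They serve to call a probe bright or dim, as for the markers below, and to pick each gene's brightest probe. The arrays measure the whole culture, in which fewer cells expressing a gene and less RNA per cell cannot be told apart.

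The targeted gene followed the labels. STAT3 probe ILMN_2401978 read 589, 549 and 667 on siSTAT3 arrays 1 to 3, against 2778, 2241 and 2544 on siCon arrays 1 to 3, a log2 change of -2.07 ± 0.11 (SE, adjusted p = 2.35e-07 in limma), and the other 2 STAT3 probes gave -1.74 and -1.63. The third siCon array stood apart from the rest, with a mean correlation of 0.989 with its group, against 0.994 to 0.995 for siSTAT3 arrays and 0.991 to 0.992 for the other siCon arrays. Of epithelial markers, KRT7, KRT8, KRT18, KRT19, EPCAM and MUC1 lay well above the median intensity of all probes (94.8), while CDH1 and CLDN4 lay near it. The ovarian carcinoma markers PAX8, MSLN, FOLR1 and ERBB2 were likewise well above it, and WT1 and MUC16 near it. Of 13 markers of blood, vessel, stromal, liver and glial cells, 5 were too dim to test and 7 had group means from 89.1 to 124.5, with CD68 the exception at 1410 in siSTAT3 cells and 1557 in siCon cells.

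After STAT3 siRNA the eta gene YWHAH stood at 53.1% of its siCon level, and no other member came near such a difference. Its probe was the 1 of 11 that was called, beside 0.871% of all tested probes (0.669% lower and 0.201% higher). The other 10 probes had log2 changes between -0.27 and 0.03. In 9 of those 10 the groups overlapped, and in 2 of the 11 probes, those of YWHAH and 1 of YWHAE, every siSTAT3 array was below every siCon array, where 15.1% of all tested probes had groups that did not overlap (7.63% lower and 7.5% higher).

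The promoter of YWHAH is shown because it is the start region of the called member and, of the 6 member promoters searched here, the only one that holds a full cyclic AMP response element. The window runs from 250 bases before the RefSeq start to 50 bases after it, on chr22:31944285-31944584 (GRCh38.p14, plus strand), and capitals mark that element, TGACGTCA, which reads the same on both strands.
YWHAH: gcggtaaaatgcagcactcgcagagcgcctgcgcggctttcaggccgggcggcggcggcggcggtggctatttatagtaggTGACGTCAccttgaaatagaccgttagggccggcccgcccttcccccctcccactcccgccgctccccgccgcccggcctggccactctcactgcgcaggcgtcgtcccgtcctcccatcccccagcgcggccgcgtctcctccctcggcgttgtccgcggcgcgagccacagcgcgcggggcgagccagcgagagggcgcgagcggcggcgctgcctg
The element is the site that CREB and ATF proteins bind. It was found in 1.85% of 35116 promoter windows of 300 bases in the RefSeq table.

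A STAT-type site, TTCNNNGAA, was searched for on both strands and was in none of the 6 windows (YWHAH, YWHAB, YWHAE, YWHAG, YWHAQ and SFN), where 7.66% of all windows hold one. GC boxes, GGGCGG on either strand, were in all 6 windows, with 3 in that of YWHAH, and in 45.0% of all windows. CCAAT boxes, CCAAT on either strand, were in the windows of YWHAB, YWHAQ and SFN and in 34.6% of all windows. These motifs were picked with the sequences in view, they do not overlap one another in YWHAH, and a match describes letters and not a bound site. A long noncoding RNA gene on the opposite strand, YWHAH-AS1, overlaps the YWHAH start in RefSeq, and no probe of the platform annotation used here bears its name.

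YWHAH encodes the eta protein, which is abundant in brain and was first studied there as a cofactor of the enzymes that begin monoamine synthesis. Probe ILMN_1728512 read 7395, 7492 and 6855 on siSTAT3 arrays 1 to 3, against 12615, 14977 and 13452 on siCon arrays 1 to 3. All siSTAT3 arrays were below all siCon arrays, and the lowest siCon value was 1.68 times the highest siSTAT3 value. The means were 7247 ± 343 in siSTAT3 cells and 13681 ± 1198 in siCon cells (SD, n = 3 each). The log2 change was -0.91 ± 0.10 (SE), a 1.88-fold lower level with a 95% interval of the log2 change from -1.13 to -0.70. It was the 23rd lowest change of 29282 tested probes.

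The YWHAH groups were also apart on the other scales, by less under median scaling (log2 change -0.83). On the unnormalised scale the probe read 7669, 8104 and 6488 in siSTAT3 cells, against 13131, 15364 and 11332 in siCon cells, again without overlap. In the authors' processed table it read 7394, 7505 and 6841 in siSTAT3 cells and 12780, 15264 and 13626 in siCon cells. The third siCon array, which stood apart over all probes, was the lowest siCon array for this probe on the unnormalised scale and lay between the other 2 on the normalised and processed scales. The log2 change was -0.93 without it. Over 15 alternative settings the change ranged from -0.97 to -0.83, and the probe was called in each. YWHAH has a single probe, so no second measurement of its transcript was at hand.

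**Figure D1:**
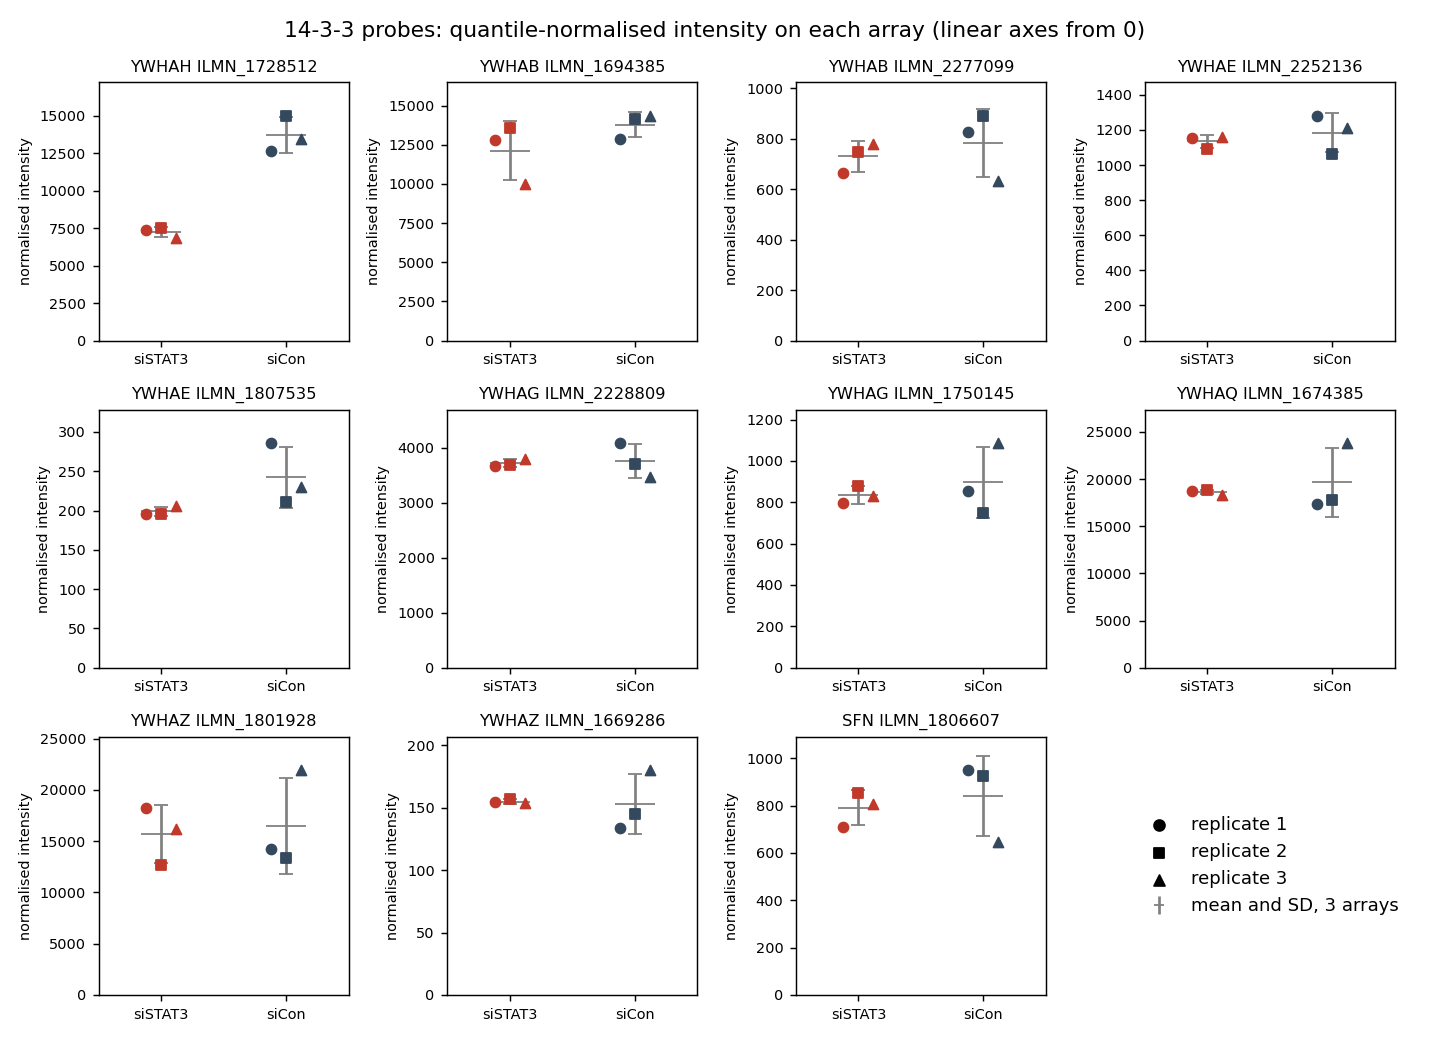
Quantile-normalised intensity (linear axes from 0) of the 11 probes on each array, siSTAT3 in red and siCon in dark blue, with marker shapes for replicates and grey bars for the mean and SD of 3 arrays. YWHAH separates into 6855 to 7492 in siSTAT3 cells and 12615 to 14977 in siCon cells, while the groups of 9 other probes overlap.

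YWHAE, the epsilon gene, whose protein tends to sit in mixed dimers and which lies in the chromosome 17 region lost in Miller-Dieker lissencephaly, had the other probe without overlap. ILMN_1807535 read 196, 196 and 205 in siSTAT3 cells, against 286, 211 and 229 in siCon cells. Its siSTAT3 values lay close together, and the separation from the second siCon array was small. The log2 change of -0.27 ± 0.12 (SE) was not called. The probe is dim, and its change was -0.15 without the first siCon array.

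The brighter YWHAE probe, ILMN_2252136, read 1157, 1091 and 1159 in siSTAT3 cells, against 1280, 1062 and 1213 in siCon cells. The second siCon array was the lowest of all 6, so the groups overlapped, and the log2 change was -0.06 ± 0.10 (SE). Both YWHAE probes are annotated to the same transcript. The single pseudogene of the family with a named probe, YWHAEP7, averaged 90.1 ± 8.15 in siSTAT3 cells and 89.9 ± 7.67 in siCon cells (SD, n = 3 each), at the edge of the intensity filter (90.1), and was not tested.

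YWHAB, the beta gene, a partner of RAF kinases, has probes annotated to its 2 curated transcripts. On NM_139323, ILMN_1694385 read 12779, 13571 and 9986 in siSTAT3 cells, against 12868, 14158 and 14340 in siCon cells. The third siSTAT3 array was the low one, and the first 2 were near the siCon arrays. The log2 change was -0.20 ± 0.12 (SE) with all arrays and -0.07 without the third siSTAT3 array. On NM_003404, ILMN_2277099 read 664, 746 and 780 in siSTAT3 cells and 826, 890 and 632 in siCon cells, a log2 change of -0.09 ± 0.13 (SE). Here the third siCon array was the lowest of the 6, which the other YWHAB probe did not show.

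YWHAG, the gamma gene, in which variants cause a developmental epilepsy, had the smallest change of the family on ILMN_2228809. That probe read 3657, 3688 and 3793 in siSTAT3 cells, against 4081, 3707 and 3468 in siCon cells, with a log2 change of -0.01 ± 0.10 (SE) and a 95% interval from -0.22 to 0.20. The siSTAT3 arrays lay inside the siCon range. The second YWHAG probe, ILMN_1750145, read 794, 878 and 833 in siSTAT3 cells and 856, 746 and 1086 in siCon cells, with a log2 change of -0.09 ± 0.13 (SE). On the third siCon array the 2 probes of this gene parted, one at its lowest and the other at its highest of the 6 arrays, on the normalised and on the unnormalised scale.

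YWHAQ, the theta gene, named from T cells, read 18739, 18796 and 18323 in siSTAT3 cells on ILMN_1674385, against 17309, 17811 and 23802 in siCon cells. The siSTAT3 arrays agreed closely and lay above 2 of the siCon arrays and below the third. The log2 change was -0.06 ± 0.12 (SE) with all arrays and 0.09 without the third siCon array.

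YWHAZ, the zeta gene, read 18273, 12676 and 16195 in siSTAT3 cells on ILMN_1801928, against 14285, 13338 and 21916 in siCon cells. The spread within each group exceeded the difference between them, and the log2 change of -0.05 ± 0.17 (SE) had the widest 95% interval of the family, from -0.41 to 0.31. Its dim probe, ILMN_1669286, read 154, 157 and 154 in siSTAT3 cells and 134, 145 and 180 in siCon cells, with a log2 change of 0.03 ± 0.11 (SE). Without the third siCon array both YWHAZ probes were higher in siSTAT3 cells, by log2 changes of 0.17 and 0.15, and neither was called.

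SFN, the sigma gene, whose protein pairs with itself and is largely confined to epithelial cells, read 709, 854 and 809 in siSTAT3 cells on ILMN_1806607, against 950, 926 and 646 in siCon cells. The third siCon array was the lowest of all and the other 2 were the highest, so the groups overlapped. The log2 change was -0.07 ± 0.14 (SE) with all arrays and -0.25 without the third siCon array, and it was called in neither case.

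**Figure D2:**
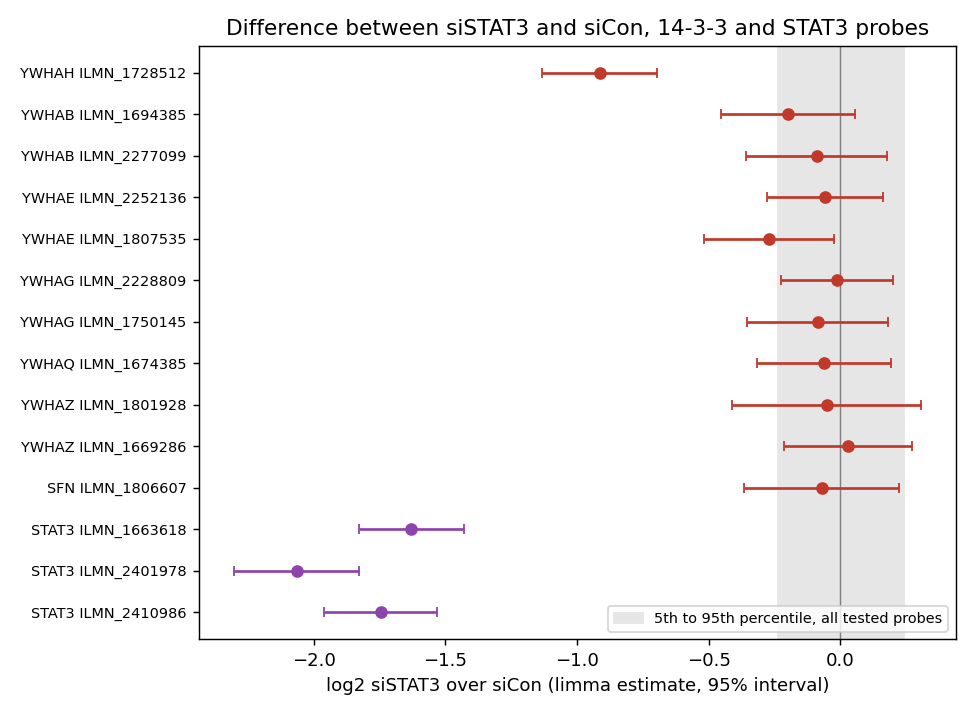
Log2 siSTAT3 over siCon for each 14-3-3 probe (red) and each STAT3 probe (purple), with 95% intervals from limma and, in grey, the span from the 5th to the 95th percentile of all tested probes (-0.24 to 0.24). YWHAH at -0.91 lies far outside the grey span, YWHAE ILMN_1807535 at -0.27 just outside it, and the other 9 probes inside it.

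Over the family as a whole, 10 of 11 probes had a change below 0, against 49.3% of all tested probes, and the median change was -0.07, against 0.00 for all tested probes. Without YWHAH the median of the remaining 10 probes was also -0.07. The 11 probes come from the same arrays and 4 genes hold 2 probes each, so they are not 11 separate observations. The direction was also not fixed for single probes. The third siCon array was the highest of the 6 arrays for 5 of the 11 probes (YWHAQ, both YWHAZ probes and 1 each of YWHAB and YWHAG) and the lowest for 3 (SFN and 1 each of YWHAB and YWHAG). On the unnormalised scale it was the highest for 2 (YWHAG ILMN_1750145 and YWHAZ ILMN_1669286) and the lowest for the same 3. Without it, 4 probes had a change above 0, namely those of YWHAQ and YWHAZ and YWHAG ILMN_1750145.

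Sequence copies bear on which members can be read with confidence. RefSeq lists 10 pseudogenes each for YWHAQ and YWHAZ, 7 for YWHAE and 2 for YWHAB, and none for YWHAH, YWHAG or SFN under their names. The probe sequences were not used here, so whether a probe of YWHAQ, YWHAZ, YWHAE or YWHAB also binds RNA of a copy was not tested. YWHAH, the called member, is on chromosome 22, and the other members lie on chromosomes 20 (YWHAB), 17 (YWHAE), 7 (YWHAG), 2 (YWHAQ), 8 (YWHAZ) and 1 (SFN), so no 2 of them share a chromosome.

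**Figure D3:**
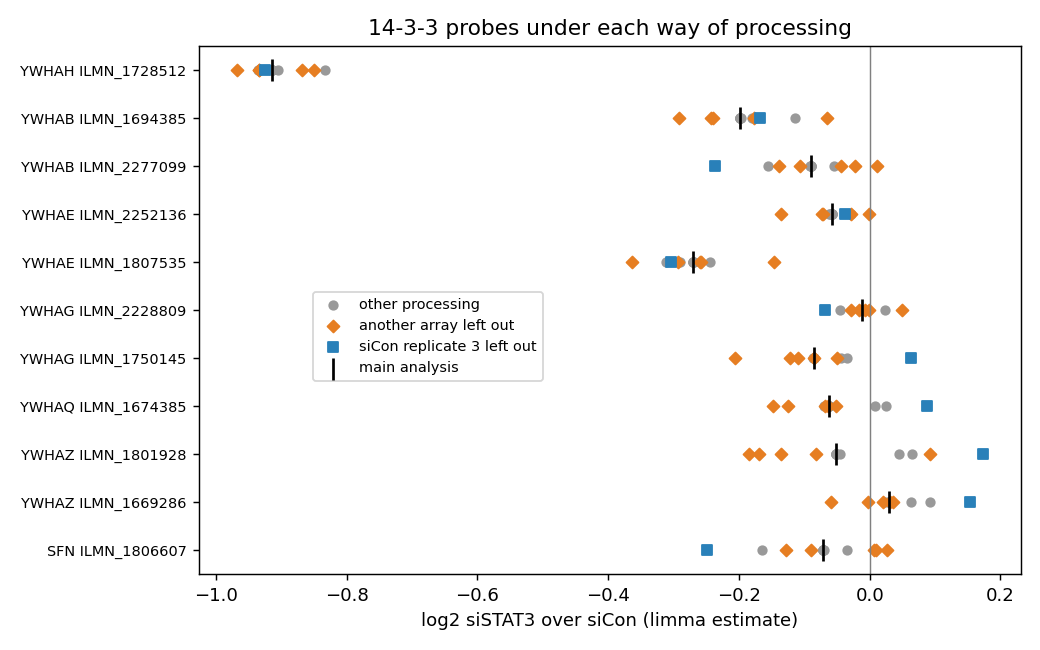
Log2 siSTAT3 over siCon of each 14-3-3 probe in the main analysis (black line), with the third siCon array left out (blue), with another array left out (orange) and under other processing (grey). YWHAH stays between -0.97 and -0.83, whereas YWHAG, YWHAQ, YWHAZ, SFN and 1 YWHAB probe have values on both sides of 0.

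The genes whose levels over the 6 arrays were most like each member's brightest probe were named by Pearson's r, as a description of 6 points that share their arrays and groups. Closest to YWHAH were CHST10, a sulfotransferase (r = 0.997, log2 change -0.45), and MXRA5, a matrix protein (r = 0.997, log2 change -0.42). For YWHAQ the closest were MRAP2 and PNN (r = 0.995 each), and for YWHAZ ENPP4 and TMED5 (r = 0.994 each), all with log2 changes between -0.09 and 0.00. SFN was most like CDKN1C, a cyclin-dependent kinase inhibitor (r = 0.995), and VPS16 (r = 0.989). YWHAG was most like TSPYL2 (r = 0.994) and NCS1 (r = 0.988). The closest to YWHAB were SKP1 (r = 0.987) and TBKBP1 (r = 0.985), and those to YWHAE SLC30A3 (r = 0.985) and PCYOX1 (r = 0.981). The neighbours of YWHAH share the split between the groups, and those of YWHAQ and YWHAZ had changes near 0 as these members do. Both follow from picking the genes by likeness over these same 6 arrays, so neither is a separate observation.

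Genes that work with 14-3-3 proteins were taken from 4 lists and read on each gene's brightest tested probe. Of 83 such genes 2 were called, the kinase SGK1 lower and the phosphatase subunit PPP3R1 higher, where 1.32% of 14153 genes were called (0.989% lower and 0.332% higher). Proteins bound by 14-3-3 held 41 tested genes, none called higher, none called lower, and a median log2 change of 0.04, against 0.01 for all genes. The client with the smallest p was YAP1, which 14-3-3 proteins hold in the cytoplasm once it is phosphorylated. YAP1 read 1511, 1749 and 1696 in siSTAT3 cells and 2315, 2127 and 3458 in siCon cells, without overlap, and did not pass (log2 change -0.64 ± 0.15 SE, limma adjusted p = 0.0596). Without the third siCon array its change was smaller, -0.43, and passed (limma adjusted p = 0.0476). Without any one siSTAT3 array YAP1 did not pass (limma adjusted p from 0.19 to 0.327). ATXN1, the ataxin that 14-3-3 stabilises, did not pass either (-0.43 ± 0.11 without overlap, limma adjusted p = 0.102). The other tested ATXN1 probe gave 0.02.

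Among 23 tested kinases that write 14-3-3 sites, SGK1, a serum- and glucocorticoid-induced relative of AKT, was the 1 called lower, with none called higher. It read 374, 355 and 421 in siSTAT3 cells, against 572, 504 and 608 in siCon cells, with no overlap. The log2 change was -0.55 ± 0.11 (SE, limma adjusted p = 0.0253), and the call was lost without the first siCon array (adjusted p = 0.0867 in limma), without any one siSTAT3 array (0.062 to 0.165) and under median scaling (0.0516). RPS6KB1, the S6 kinase, gave 0.33 ± 0.10 without overlap (limma adjusted p = 0.169), and AKT1 gave -0.33 ± 0.13 with overlap (limma adjusted p = 0.384). The other tested AKT1 probe gave -0.33 ± 0.11 without overlap and did not pass either (limma adjusted p = 0.231). The median of this list was -0.02.

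Of 9 phosphatase subunits that can erase such sites, PPP3R1, the regulatory subunit of calcineurin, was the 1 called higher, with none called lower. It read 927, 1081 and 1318 in siSTAT3 cells, against 627, 568 and 838 in siCon cells. The siSTAT3 values spread widely but lay above all siCon values, with a log2 change of 0.71 ± 0.15 (SE, limma adjusted p = 0.0332). The call was lost on leaving out any one array other than the third siCon array (adjusted p from 0.0636 to 0.235 in limma). PPP1CC, a catalytic subunit of protein phosphatase 1, gave -0.47 ± 0.11 without overlap and did not pass (limma adjusted p = 0.0569). PPP1CB gave 0.28 ± 0.14 with overlap (limma adjusted p = 0.518), and -0.04 on its other tested probe.

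The list around SFN, of its regulators and of the cell cycle kinases it restrains, had 10 tested genes and no call, with a median of -0.05. CDK4 had the smallest p (-0.31 ± 0.11 without overlap, limma adjusted p = 0.294). Next came CDK1, the mitotic kinase that SFN keeps out of the nucleus (-0.22 ± 0.11 with overlap, limma adjusted p = 0.555, and -0.01 on its other probe). BRCA1, an activator of the SFN gene, followed (0.17 ± 0.10 with overlap, limma adjusted p = 0.640, and 0.06 on its other probe).

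**Figure D4:**
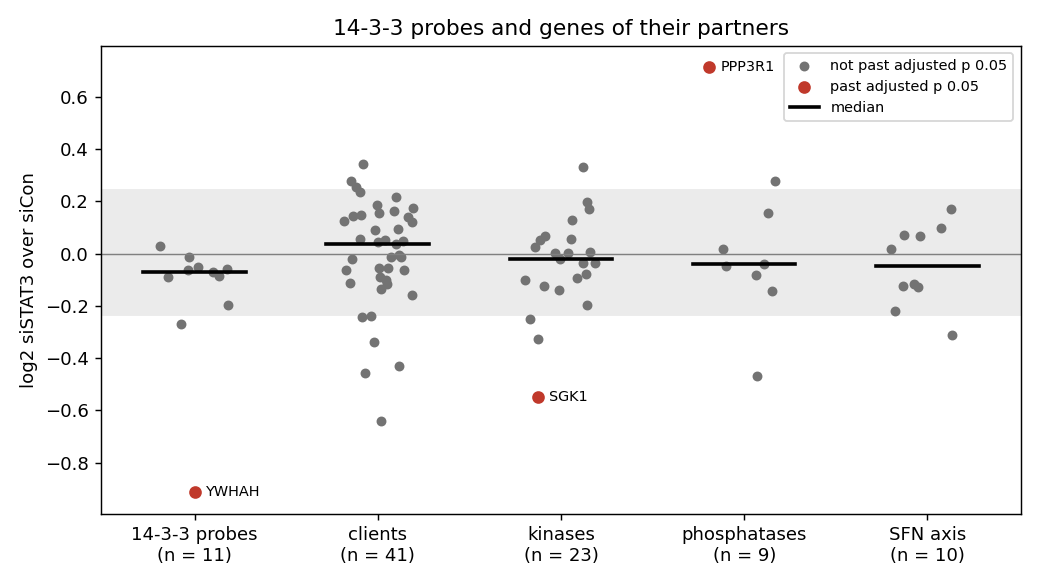
Log2 siSTAT3 over siCon for the 11 14-3-3 probes and for the tested genes of 4 partner lists, with called probes in red, medians as black lines and the 5th to 95th percentile span of all tested probes in grey. YWHAH, SGK1 and PPP3R1 are the called ones, and the 4 list medians lie between -0.05 and 0.04.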

How the data were processed

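Total RNA was copied into biotin-labelled cRNA, per the labels' protocols. The authors deposited 2 tables of probe intensity, the first unnormalised and the second processed. The submitters' processing notes name BeadStudio, with no version, and no source used here says whether background was subtracted. Within each array the processed values kept the probe order of the unnormalised values (rank correlation 1).

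Group and replicate came from the sample titles. Unnormalised intensities were quantile-normalised and taken to log2, with no pseudocount, and probes brighter on average than the 40th percentile (90.1) were tested by lmFit and eBayes, two-sided, in limma 3.58.1 under R 4.3.3. Symbols come from the platform annotation, updated through RefSeq (28059 probes by Entrez ID, 14 by accession, 25 unchanged). 20692 probes had no symbol and 13 had several. Each probe was fitted by itself. List genes use their tested probe of highest mean, and genes with no named probe are not analysed here. The genes named are STAT3, all members, called list genes with the 3 of smallest p in each list, and the 2 genes most like each member, of which 1 list gene is not reported here.

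The members and lists were chosen with earlier results of these data known. The procedure was tested on simulated data with known changes and noise drawn separately for each probe and array. Those data hold no array that stands apart over all probes, so they say nothing about the effect of the third siCon array. No 2 arrays were identical. Replicate numbers were not taken as pairs (correlations of same-numbered deviations 0.04, 0.14 and 0.07).

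Alternatives were median scaling, the processed values, no filter, a 60th percentile filter, 1 probe per gene, array weights, robust variance with an intensity trend, normexp with an offset of 50, the replicate number as a block, and each array left out.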

Additional observations from a re-analysis of the deposited data

How the results depend on the processing

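The count of called 14-3-3 probes was 1, YWHAH, under each of the 15 alternatives. The count over all tested probes, 255 in the main analysis, was 409 with array weights and 395 with the replicate number as a block, and from 87 to 444 on leaving out 1 array, with 444 without the third siCon array and 87, 107 and 87 without siSTAT3 arrays 1 to 3. With 1 probe per gene, 1 STAT3 probe was left to test, so that the count of called STAT3 probes was 1. The 2 called partner genes became 1 under median scaling, 4 with no filter, 4 with array weights, and from 0 to 3 on leaving out 1 array, with 0 without any one of the siSTAT3 arrays and 1 without the first siCon array. YAP1 passed under 8 of 15 alternatives (limma adjusted p from 0.018 to 0.327 over all) and PPP1CC under 3. The replicate block, for numbers that were not taken as pairs, left the 14-3-3 count at 1. Each array deviated most like the array of the other group with its own number, but with small correlations (0.04, 0.14 and 0.07). Deviations within a group sum to 0, so these matches are not separate observations. Pairing is not part of the design, and none was concluded from them. Dim probes (YWHAE ILMN_1807535, YWHAZ ILMN_1669286) are limited by their closeness to background.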
